A study of Mus musculus with 16 samples.

Results

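The 39 genes of the mouse Hox clusters were followed in differentiating embryonic stem cells exposed to a hawthorn extract or to a fraction of it. The members are all genes whose symbol begins with Hoxa, Hoxb, Hoxc or Hoxd followed by a number. Scanner files give such a symbol to only 5 probes of 5 genes (Hoxa3, Hoxa9, Hoxb2, Hoxb3 and Hoxc6), and name most other probes by a transcript accession. Accessions were therefore resolved through RefSeq, which gave 48 Hox probes for all 39 genes among 60273 probes with 45009 names. The A cluster contributed 11 genes and 14 probes, the B cluster 10 and 12, the C cluster 9 and 13, and the D cluster 9 and 9. Of these genes, 30 passed the filter on background and were tested.

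Hox genes encode homeodomain transcription factors that give cells their position along the head-to-tail axis of the embryo. They lie side by side in 4 clusters, named A to D, and are numbered by paralog group, from the anterior group 1 to the posterior group 13. Genes of the anterior groups are activated early and pattern the hindbrain and neck, central groups the trunk, and posterior groups the lumbar to tail region, the limbs and the urogenital tract. Retinoic acid, Wnt signals and the Cdx proteins open the clusters in turn, Polycomb proteins keep them closed in pluripotent cells, and the TALE proteins (Pbx, Meis, Pknox) bind DNA together with Hox proteins.

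The cells were CGR8-Myh6-GFP mESCs, mouse embryonic stem cells of the male CGR8 line, which carry green fluorescent protein under the promoter of Myh6, the cardiac myosin heavy chain gene. They differentiated spontaneously in medium without LIF, the factor that keeps mouse embryonic stem cells undifferentiated, and treatments began on day 4. WS1442 is a dry extract of hawthorn (Crataegus) leaves with flowers, given at 0.25 mg/ml, and the MeOH eluate is the methanol-eluted fraction of that extract, rich in oligomeric procyanidins, given at 0.1 mg/ml. RNA was taken after 6 h and 24 h from 2 DMSO vehicle cultures, 3 WS1442 cultures and 3 MeOH eluate cultures per time point, 16 one-colour arrays in all. Every group shared the line, the medium and the start of treatment. Doses of the extract and the eluate differed, so differences between them are those between these preparations at these doses. The labels do not say that replicates came from separate differentiations, so p-values measure only the spread between these samples. The 8 arrays of a time point lay on 1 slide, and slide and time cannot be told apart. The cultures held several cell types, and a change in the share of a cell type and a change in RNA per cell cannot be told apart in bulk RNA.

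Between 55.1% and 63.0% of gene spots were well above background per array, and RNA integrity numbers ran from 8.6 to 10. Values below are log2 intensities after quantile normalization, and differences are on the log2 scale. A gene was called when its adjusted p (limma, Benjamini-Hochberg over all 29298 genes tested) was under 0.05. A 2-group Student's t-test, which the study's methods name for pairwise comparisons in general, was also run on the same values and called no Hox gene after adjustment in the 7 comparisons where it can be made. Losses of a call under other settings are given beside the gene. Under another background correction (normexp with an offset of 50), which raises low signals, 23 of the 50 called differences of Hox genes shrank by over 1.5 times and none changed sign. In the eluate against DMSO (log2), Hoxb8 shrank to -0.35 and Hoxd9 to -0.53 at 6 h. At 24 h Hoxb6 shrank to -0.91, Hoxd9 to -0.64, Hoxc10 to -0.30 and Hoxc12 to 0.32. Hoxb2, above background on all 16 arrays, shrank at 6 h from 0.555 to 0.321 with WS1442 and from 0.411 to 0.235 with the eluate. Sizes of change thus depend on that choice, and not only for genes near background. The cells' labelled state was checked against markers: Pou5f1, the pluripotency factor, was still well above background, while Myh6 itself was so on only 3 of 16 arrays. The other cardiac markers listed, among them Nkx2-5, Gata4, Tnnt2, Actc1 and Myl7, were above background on all 16.

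Signals rest on short oligonucleotides, so the parts of the probes that carry the main results are shown first, as windows of 30 bases, 5′ to 3′. Capitals mark the polyadenylation signal AATAAA where a probe holds it and otherwise its longest run of C and T. A curated transcript is a reviewed RefSeq entry and a predicted transcript is a computed one.
Hoxb2: gggCCTTCTCCactcgtggatacatttatg
Hoxb6: TTTCTatgtgttgtgtttgtagtcttgtct
Hoxc4, predicted transcript: TTTTTTTTTTCTCTCCCTCTTCCCCCTCCT
Hoxc6, predicted transcript: ctcccctgTCTCCCTCTTTCaccagtatga
Hoxc6, curated transcript: CTCTTCTCCCTTgctcatcccagctccccg
Hoxc12: ataaTCTCCTgaatcctgggtttgtggggc
Hoxd1: gtgaagaggaacgCCCCCaagaaaagcaaa
Hoxd4: caacccggtgataaacatgCTTTCTTCCTa
Hoxd9: taccgcttccaacaAATAAAtgctgatctg
Hoxd12: gtatcaccacaggaagagaCCCCCCCCCCa

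The Hoxd9 probe holds AATAAA, the signal that precedes the 3′ end of a messenger RNA. The Hoxc4 probe of the predicted transcript opens with a window made only of C and T, and the Hoxd12 window ends in a run of C. Among the probes not shown, those of Hoxb8 and Hoxd13 hold C and T runs of 15 and 18 bases. Over all 60273 probes, 61.0% of those with a C and T run of 8 or more were well above background on all 16 arrays, against 44.0% of those with shorter runs. Among Hox probes the same split gave 16 of 20 and 12 of 28. Detection was thus more frequent among probes with long C and T runs over the whole array, and how much of the signal of such a Hox probe comes from its Hox transcript was not tested.

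**Figure D1:**
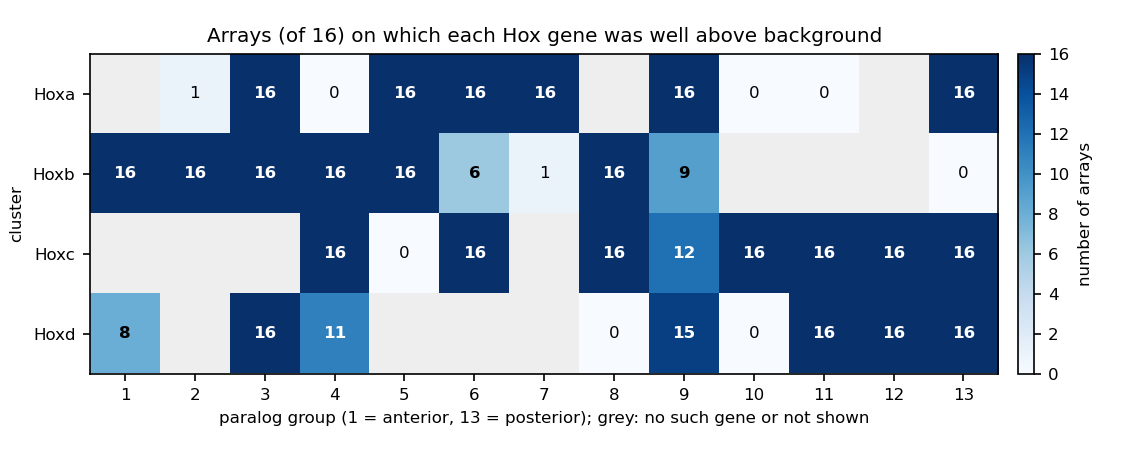
Number of arrays, of 16, on which the best probe of each Hox gene was well above background, drawn by cluster (rows) and paralog group (columns). Genes of anterior, central and posterior groups were detected, and counts run from 0 to 16 arrays (grey: no such gene or not shown).

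By its best probe, 24 Hox genes were well above background on all 16 arrays, 8 on some and 7 on none. Detection did not stop at the anterior groups, as the map of detection by cluster shows. Of the 12 genes of groups 1 to 4, 8 were detected on all arrays; of the 11 genes of groups 5 to 8, 7 were; and of the 16 genes of groups 9 to 13, 9 were. Undetected genes were Hoxa4, Hoxa10, Hoxa11, Hoxb13, Hoxc5, Hoxd8 and Hoxd10, and Hoxa2 and Hoxb7 were each detected on 1 array. These 9 genes were not tested. Further probes of Hoxa3, Hoxa9, Hoxb2, Hoxc4 and Hoxc6 were above background on no array, although another probe of each of these genes passed the filter.

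Another 6 genes passed the filter through only some groups. Hoxb6, a trunk gene, was detected on 0 of 8 arrays at 6 h, then on 2 of 2 DMSO, 3 of 3 WS1442 and 1 of 3 MeOH eluate arrays at 24 h. Hoxd4, a gene of the posterior hindbrain and neck, was detected on all 8 arrays at 6 h, and at 24 h on 0 of 2 DMSO, 2 of 3 WS1442 and 1 of 3 MeOH eluate arrays. Hoxd1 was detected on 8 arrays, Hoxb9 on 9, Hoxc9 on 12 and Hoxd9 on 15. A gene that passes through the groups where it is high tends to differ between groups, so counts over the 30 tested genes describe them and support nothing further.

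Of the 30 tested genes, 21 were called in at least 1 of 9 comparisons. Of these, 8 had a called change of over 2-fold, among them Hoxb2, Hoxb6, Hoxc6, Hoxc12, Hoxd1, Hoxd4 and Hoxd9. The share of all genes called in any comparison was not worked out, so both counts only describe the members. Between 24 h and 6 h of DMSO, 12 Hox genes were called (3 higher, 9 lower), which is 40.0% of the tested members, beside 43.3% of all genes tested. WS1442 against DMSO gave 2 calls at 6 h (6.67% of members, 5.55% of all genes) and 5 at 24 h (16.7%, 24.7%). MeOH eluate against DMSO gave 8 calls at 6 h (26.7%, 17.1%) and 6 at 24 h (20.0%, 18.3%). The shares of WS1442 at 6 h and of the MeOH eluate at 24 h lay near those of all genes, and leaving out 1 array moved these counts between 0 and 3 and between 2 and 6.

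The Hox medians moved little. They were -0.19 (WS1442, 6 h), -0.16 (MeOH eluate, 6 h), 0.10 (WS1442, 24 h) and -0.07 (MeOH eluate, 24 h), beside medians over all genes of -0.006, -0.001, 0.045 and 0.012. Comparisons of both preparations at a time point share their DMSO arrays, so their values below stand side by side and are not independent of each other.

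**Figure D2:**
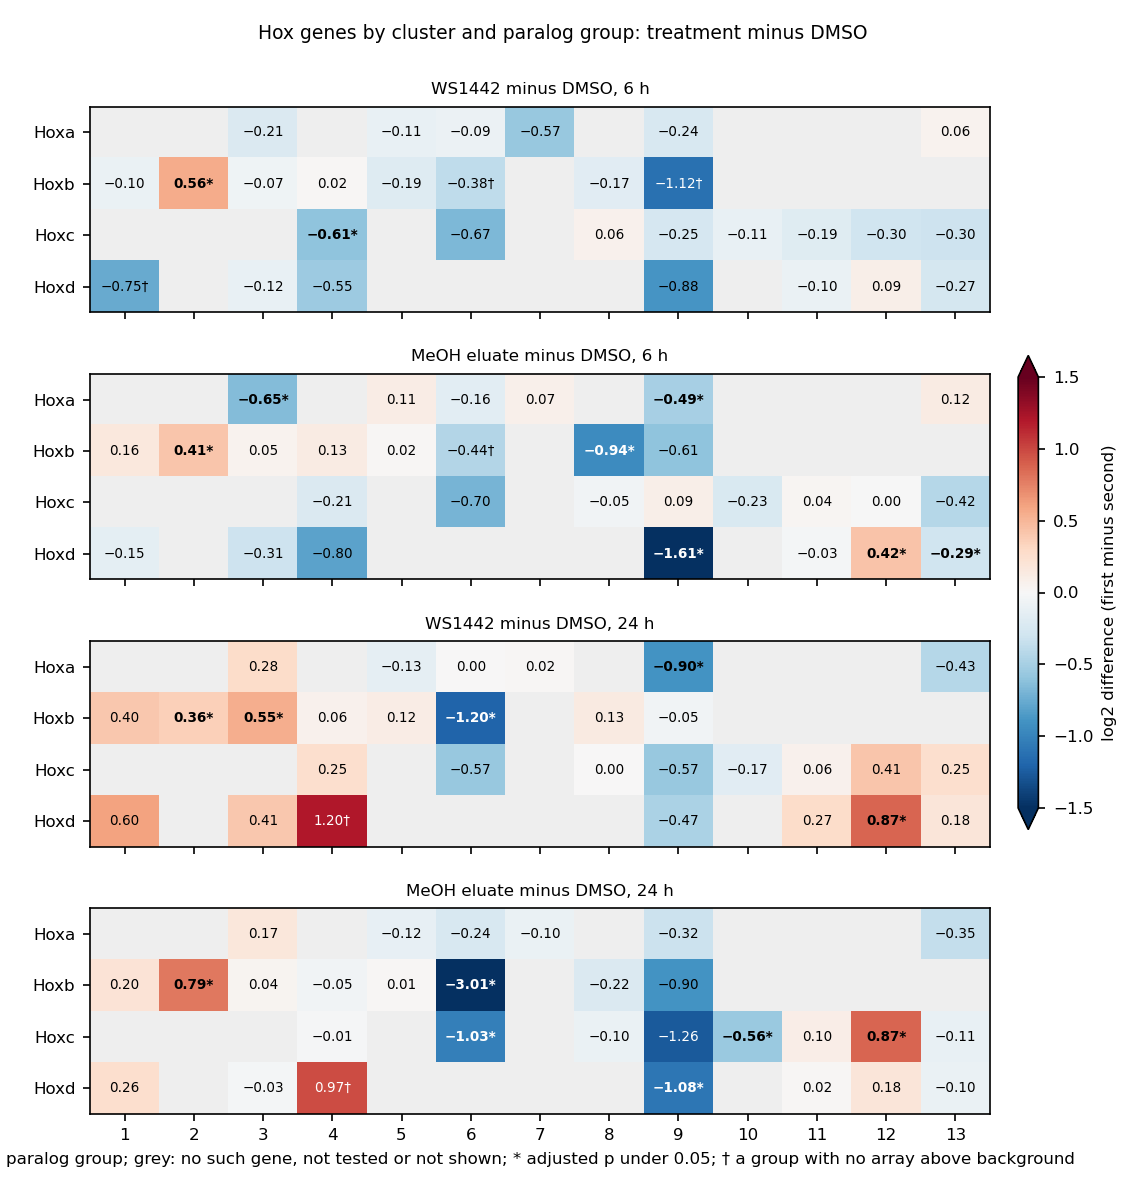
Log2 difference of each tested Hox gene from DMSO, as colour and printed value, with clusters in rows and paralog groups in columns and a panel for each preparation and time (asterisk: called; grey: no gene, not tested or not shown; dagger: a group had no array above background, so the size is not measured), and the colour scale ends at 1.5. Called values lie on both sides of 0, from -3.01 for Hoxb6, with 1 of 3 MeOH eluate arrays above background, to 0.87 for Hoxd12 (WS1442) and Hoxc12 (MeOH eluate).

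Hoxb2 was the only Hox gene called in all 4 treatment comparisons, and higher in each. It acts in the hindbrain, downstream of Hoxb1 and Egr2. At 6 h its levels were 6.26 and 6.40 in DMSO, 6.80, 6.71 and 7.14 with WS1442, and 6.73, 6.72 and 6.77 with the MeOH eluate. At 24 h they were 7.85 and 7.87 in DMSO, 8.26, 8.11 and 8.29 with WS1442, and 8.72, 8.65 and 8.56 with the MeOH eluate. Every treated array lay above both DMSO arrays of its time point, and at 24 h the MeOH eluate arrays also lay above those of WS1442. The other Hoxb2 probe was above background on no array, so these values come from the brighter probe only.

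Hoxb2 rose with the MeOH eluate at 24 h by 0.79 (SE 0.11, adjusted p = 0.000174), a 1.73-fold level that was called in all 16 fits leaving out 1 array. The difference from WS1442 at 24 h was 0.43 (SE 0.10, adjusted p = 0.0109). That difference was lost without WS1442 24 h replicate 2 (adjusted p = 0.0519). It rose by 0.56 (SE 0.11, adjusted p = 0.0127) with WS1442 at 6 h, 0.41 (SE 0.11, adjusted p = 0.0222) with the MeOH eluate at 6 h and 0.36 (SE 0.11, adjusted p = 0.0314) with WS1442 at 24 h. The 6 h call of WS1442 was lost without DMSO 6 h replicate 1 (adjusted p = 0.178), and with only the compared groups in the fit or the replicate number as a block (adjusted p from 0.064 to 0.183). That of the MeOH eluate at 6 h was lost without DMSO 6 h replicate 1 or MeOH eluate 6 h replicate 3 (adjusted p from 0.064 to 0.205), and with the replicate number as a block (adjusted p = 0.0865). That of WS1442 at 24 h was lost without DMSO 24 h replicate 1 or 2 or WS1442 24 h replicate 1 or 3 (adjusted p from 0.0743 to 0.147), and with the replicate number as a block or the array row as a block (adjusted p from 0.0511 to 0.0538).

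The group 3 genes went separate ways. Hoxb3, a hindbrain gene, read 8.39 and 8.33 in DMSO, 8.64, 8.97 and 9.12 with WS1442, and 8.37, 8.34 and 8.50 with the MeOH eluate at 24 h. The WS1442 arrays lay above the other 5, with a rise over DMSO of 0.55 (SE 0.13, adjusted p = 0.00546) and a MeOH eluate level below WS1442 by a log2 difference of -0.51 (SE 0.11, adjusted p = 0.00768). The latter call was lost without WS1442 24 h replicate 3 (adjusted p = 0.0503). Its other passing probe gave 0.30 (adjusted p = 0.143) for WS1442 at 24 h, and was called for the MeOH eluate at 6 h at 0.47 (adjusted p = 0.0328), where the first probe was not. At 6 h the 8 Hoxb3 values ran together, with 8.55 and 8.47 in DMSO, 8.53, 8.41 and 8.40 with WS1442, and 8.54, 8.37 and 8.77 with the MeOH eluate.

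Hoxa3, which the thymus and parathyroid need, fell with the MeOH eluate at 6 h by a log2 difference of -0.65 (SE 0.20, adjusted p = 0.0416), from 7.32 and 6.75 in DMSO to 6.29, 6.68 and 6.19. That call was lost in 8 of the 16 fits that each left out 1 array (adjusted p up to 0.454), and in 6 other processing settings (adjusted p up to 0.13). The other Hoxa3 probe was above background on no array. Hoxd3, a gene of the upper neck vertebrae, was called among the treatment comparisons only between the preparations at 24 h, where the MeOH eluate read 5.11, 5.29 and 5.35 against 5.63, 5.62 and 5.81 in WS1442, a difference of -0.44 (SE 0.13, adjusted p = 0.0372). It was lost in 6 of the 16 fits that each left out 1 array (adjusted p up to 0.157), and in 5 other processing settings (adjusted p up to 0.064).

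Hoxc4, of the lower neck, fell with WS1442 at 6 h. Its values were 11.36 and 11.03 in DMSO, 10.31, 10.73 and 10.71 with WS1442, and 11.07, 10.86 and 11.01 with the MeOH eluate at 6 h. Its 24 h values were 10.62 and 10.76 in DMSO, 10.70, 10.91 and 11.21 with WS1442, and 10.70, 10.56 and 10.76 with the MeOH eluate. All WS1442 arrays lay below DMSO at 6 h, and the groups overlapped at 24 h. The change at 6 h was -0.61 (SE 0.15, adjusted p = 0.028), read by the C and T probe of the predicted transcript, while the probe of the curated transcript gave -0.16 (adjusted p = 0.234). The 6 h call of Hoxc4 was lost without DMSO 6 h replicate 1 or WS1442 6 h replicate 1 (adjusted p from 0.0549 to 0.379), and in 4 other processing settings (adjusted p up to 0.15).

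Hoxd4 was dim at 24 h in every group. It read 5.92 and 5.85 in DMSO, 4.70, 5.58 and 5.73 with WS1442, and 4.49, 5.07 and 5.70 with the MeOH eluate at 6 h. Its 24 h values were 2.38 and 2.95 in DMSO, 4.28, 4.23 and 3.07 with WS1442, and 3.02, 4.02 and 3.87 with the MeOH eluate. The treated arrays at 24 h all lay above DMSO, where neither array was above background. The differences of 1.20 (SE 0.45, adjusted p = 0.0649) for WS1442 and 0.97 (SE 0.45, adjusted p = 0.16) for the MeOH eluate did not pass the test. Their size is uncertain, since only 2 of 3 WS1442 and 1 of 3 MeOH eluate arrays were above background. Hoxb1, which specifies hindbrain segments, was 0.40 (SE 0.14, adjusted p = 0.0537) in WS1442 at 24 h, also short of the threshold.

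**Figure D3:**
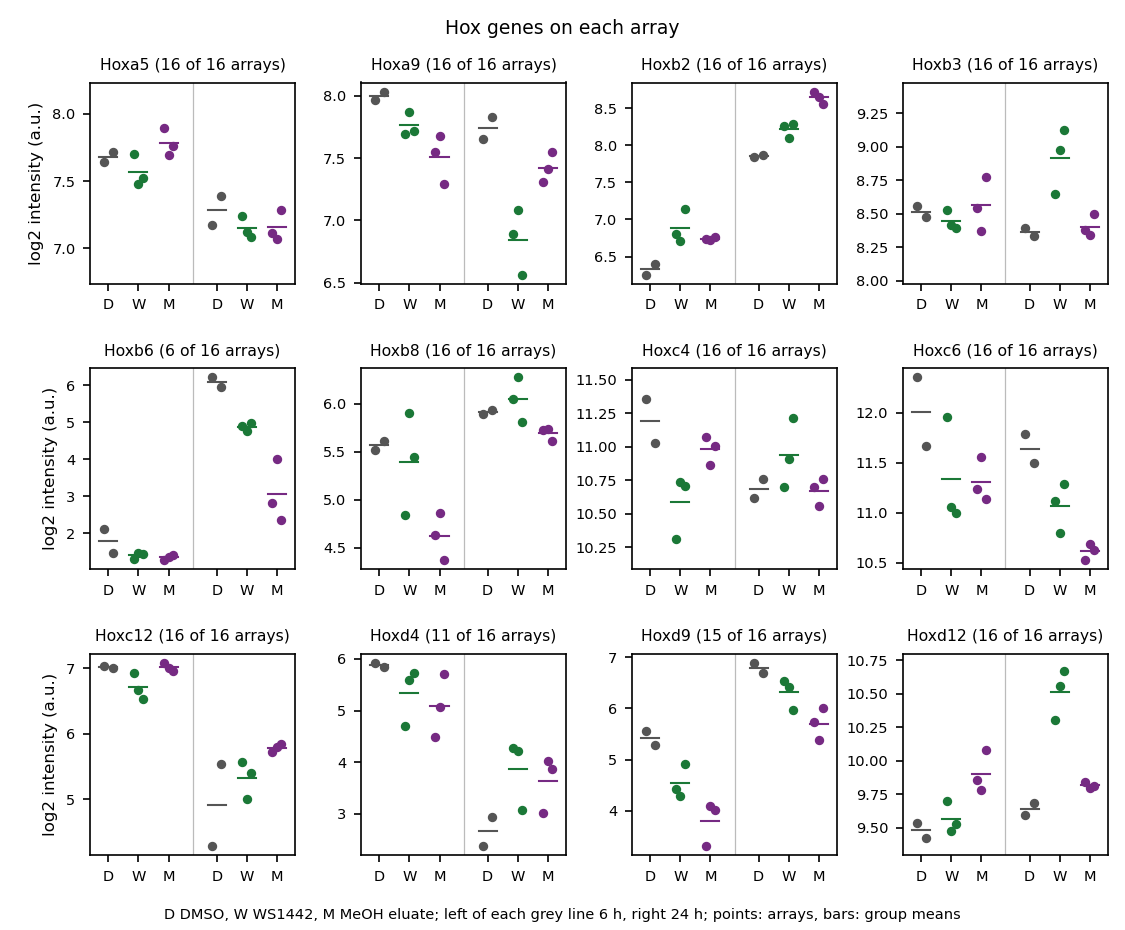
Log2 intensity on each array (points) and group mean (bar) for 12 Hox genes (D for DMSO, W for WS1442, M for the MeOH eluate, with 6 h on the left of each panel and 24 h on the right; each panel has its own axis range). Hoxb2 climbs from 6 h to 24 h and with treatment, Hoxb6 is near background at 6 h in all groups, and the 3 WS1442 arrays of Hoxd12 at 24 h stand above the rest.

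Among the central groups the largest treatment change was that of Hoxb6, known from the lateral plate mesoderm and trunk. At 6 h all 8 arrays were below background, with values from 1.28 to 2.13. At 24 h the levels were 6.21 and 5.95 in DMSO, 4.90, 4.77 and 4.96 with WS1442, and 2.82, 4.02 and 2.36 with the MeOH eluate. The 3 groups did not overlap, and DMSO was the highest and MeOH eluate the lowest, with 1 of its 3 arrays above background.

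Hoxb6 fell with the MeOH eluate at 24 h by a log2 difference of -3.01 (SE 0.42, adjusted p = 0.000133) by the signals of all 3 arrays, and the difference from WS1442 was -1.81 (SE 0.37, adjusted p = 0.00512). Both calls held in all 16 fits leaving out 1 array, but with 2 of the 3 MeOH eluate arrays below background their size is uncertain, and it shrank to -0.91 and -0.39 with the normexp correction. With WS1442 it was lower than in DMSO, with a log2 difference of -1.20 (SE 0.42, adjusted p = 0.0492). That smaller change was lost in 14 of the 16 fits that each left out 1 array (adjusted p up to 0.248), and in 4 other processing settings (adjusted p up to 0.165). 

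Hoxc6, of the thorax, read 11.79 and 11.49 in DMSO, 11.12, 10.79 and 11.29 with WS1442, and 10.53, 10.69 and 10.63 with the MeOH eluate at 24 h by the probe of its predicted transcript. The MeOH eluate arrays were the lowest, and the change from DMSO was -1.03 (SE 0.25, adjusted p = 0.0104). The probe of the curated transcript gave 0.16 (adjusted p = 0.742) for the same comparison, so the fall is that of 1 probe. At 6 h the first probe read 12.36 and 11.67 in DMSO, 11.96, 11.06 and 11.00 with WS1442, and 11.24, 11.56 and 11.14 with the MeOH eluate, with DMSO replicate 1 above all others. The 24 h call was lost without DMSO 24 h replicate 1 (adjusted p = 0.109), and with the mean of all passing probes of a gene (adjusted p = 0.214).

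Hoxb8, active in trunk mesoderm and in blood progenitors, fell with the MeOH eluate at 6 h. Its values were 5.52 and 5.62 in DMSO, 4.84, 5.91 and 5.45 with WS1442, and 4.64, 4.86 and 4.37 with the MeOH eluate. The MeOH eluate arrays lay below DMSO, with a log2 difference of -0.94 (SE 0.24, adjusted p = 0.0155), but overlapped with WS1442, from which the difference was -0.78 (SE 0.22, adjusted p = 0.0336). The call against DMSO was lost without DMSO 6 h replicate 1 or 2 or MeOH eluate 6 h replicate 3 (adjusted p from 0.0631 to 0.0876). The call against WS1442 was lost without WS1442 6 h replicate 2 or 3 or MeOH eluate 6 h replicate 1 or 3 (adjusted p from 0.0857 to 0.126), and in 4 other processing settings (adjusted p up to 0.147). Hoxa5 and Hoxb5, both detected on all 16 arrays, were called in no treatment comparison. At 24 h Hoxa5 read 7.17 and 7.39 in DMSO, 7.24, 7.12 and 7.08 with WS1442, and 7.12, 7.07 and 7.28 with the MeOH eluate, and Hoxb5 read 7.62 and 7.82 in DMSO, 7.79, 7.79 and 7.94 with WS1442, and 7.77, 7.66 and 7.79 with the MeOH eluate.

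Among the posterior groups, Hoxd9, of the lower trunk and the proximal limb, fell with the MeOH eluate at both times. At 6 h it read 5.56 and 5.28 in DMSO, 4.42, 4.28 and 4.91 with WS1442, and 3.31, 4.08 and 4.01 with the MeOH eluate. At 24 h it read 6.89 and 6.69 in DMSO, 6.54, 6.42 and 5.97 with WS1442, and 5.73, 5.38 and 6.01 with the MeOH eluate. All treated arrays lay below DMSO at both times, and the MeOH eluate arrays also lay below those of WS1442 at 6 h. The change with the MeOH eluate was -1.61 (SE 0.27, adjusted p = 0.000956) at 6 h and -1.08 (SE 0.27, adjusted p = 0.0106) at 24 h.

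With WS1442 Hoxd9 gave -0.88 (SE 0.27, adjusted p = 0.072) at 6 h and -0.47 (SE 0.27, adjusted p = 0.227) at 24 h, neither of which passed the test. The MeOH eluate change at 6 h held in all 16 fits leaving out 1 array. That at 24 h was lost without DMSO 24 h replicate 1 (adjusted p = 0.0941). Hoxa9, which acts in blood stem cells and in the trunk, read 7.66 and 7.83 in DMSO, 6.89, 7.08 and 6.57 with WS1442, and 7.31, 7.41 and 7.55 with the MeOH eluate at 24 h. Here WS1442 was the lowest group, and the 3 groups did not overlap. The other Hoxa9 probe was above background on no array. Hoxa9 fell with WS1442, with a log2 difference of -0.90 (SE 0.14, adjusted p = 0.000439), a call that held in all 16 fits leaving out 1 array, and the MeOH eluate lay above WS1442 by 0.58 (SE 0.13, adjusted p = 0.00759).

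At 6 h Hoxa9 read 7.97 and 8.03 in DMSO, 7.70, 7.87 and 7.72 with WS1442, and 7.55, 7.68 and 7.29 with the MeOH eluate. The MeOH eluate change was -0.49 (SE 0.14, adjusted p = 0.0274). It was lost without DMSO 6 h replicate 1 or 2 or MeOH eluate 6 h replicate 3 (adjusted p from 0.109 to 0.132), and with no filter on background or the replicate number as a block (adjusted p from 0.0517 to 0.0754). Hoxb9 and Hoxc9, both below background on several arrays, gave -0.90 (SE 0.47, adjusted p = 0.23) and -1.26 (SE 0.45, adjusted p = 0.0663) with the MeOH eluate at 24 h. Hoxa9 stood at -0.32 (SE 0.14, adjusted p = 0.147) in that comparison, so that Hoxd9 was the member of group 9 called there.

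Hoxd12, a gene of the distal limb and urogenital tract, rose with the MeOH eluate at 6 h and with WS1442 at 24 h. It read 9.53 and 9.43 in DMSO, 9.70, 9.48 and 9.53 with WS1442, and 9.86, 9.78 and 10.08 with the MeOH eluate at 6 h. Its 24 h values were 9.59 and 9.69 in DMSO, 10.31, 10.56 and 10.67 with WS1442, and 9.84, 9.80 and 9.81 with the MeOH eluate. The preparation that stood highest differed between the times: the MeOH eluate at 6 h and WS1442 at 24 h, in each case with no overlap with DMSO. The rise with WS1442 at 24 h was 0.87 (SE 0.10, adjusted p = 5.47e-05), 1.83-fold, and that with the MeOH eluate at 6 h was 0.42 (SE 0.10, adjusted p = 0.0114). Between the preparations, the MeOH eluate was above WS1442 by 0.34 (SE 0.09, adjusted p = 0.0303) at 6 h, and the difference at 24 h was -0.69 (SE 0.09, adjusted p = 0.000338).

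Both calls of Hoxd12 at 24 h held in all 16 fits leaving out 1 array. At 6 h the call of the MeOH eluate against DMSO was lost without DMSO 6 h replicate 2 (adjusted p = 0.0912). That against WS1442 was lost without WS1442 6 h replicate 2 or 3 or MeOH eluate 6 h replicate 1 or 3 (adjusted p from 0.064 to 0.127), and in 6 other processing settings (adjusted p up to 0.0873). The probe behind Hoxd12 holds a run of C, shown above, and that of Hoxd13 a C and T run of 18 bases. The part of these runs in the values was not tested. Hoxd13, the neighbour of Hoxd12 and a gene of the digits, read 10.20 and 10.02 in DMSO, 9.92, 9.84 and 9.75 with WS1442, and 9.90, 9.77 and 9.77 with the MeOH eluate at 6 h. It fell with the MeOH eluate, with a log2 difference of -0.29 (SE 0.09, adjusted p = 0.038), opposite in sign to Hoxd12. The call of Hoxd13 was lost without DMSO 6 h replicate 1 or MeOH eluate 6 h replicate 2 or 3 (adjusted p from 0.0874 to 0.351), and with no filter on background or no intensity trend or the array row as a block (adjusted p from 0.0617 to 0.0663).

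At 24 h Hoxd13 read 9.59 and 9.73 in DMSO, 9.71, 9.81 and 10.01 with WS1442, and 9.52, 9.51 and 9.65 with the MeOH eluate, and the MeOH eluate minus WS1442 difference was -0.28 (SE 0.08, adjusted p = 0.0307). This difference was lost without WS1442 24 h replicate 2 or 3 or MeOH eluate 24 h replicate 1 or 2 (adjusted p from 0.0622 to 0.162), and with no filter on background or no intensity trend (adjusted p from 0.052 to 0.0576). In the C cluster, Hoxc10, of the lumbar spine, fell with the MeOH eluate at 24 h, with a log2 difference of -0.56 (SE 0.17, adjusted p = 0.0306), from 6.40 and 6.17 in DMSO to 5.43, 5.93 and 5.81. The call of Hoxc10 was lost without DMSO 24 h replicate 1 or MeOH eluate 24 h replicate 1 or 3 (adjusted p from 0.0504 to 0.244), and with no filter on background or only the compared groups in the fit or the replicate number as a block (adjusted p from 0.0561 to 0.0916).

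Hoxc12, best known from the hair follicle, read 4.29 and 5.54 in DMSO, 5.57, 5.01 and 5.41 with WS1442, and 5.72, 5.80 and 5.85 with the MeOH eluate at 24 h. DMSO replicate 1 was the lowest of the 16 arrays, and the 3 MeOH eluate arrays lay above both. The rise with the MeOH eluate of 0.87 (SE 0.26, adjusted p = 0.0302) turns on DMSO replicate 1. It was lost without DMSO 24 h replicate 1 or MeOH eluate 24 h replicate 1 or 2 or 3 (adjusted p from 0.0567 to 0.557), and in 6 other processing settings (adjusted p up to 0.139).

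The direct comparison of the MeOH eluate with WS1442 called 3 Hox genes at 6 h (10.0% of members, beside 12.1% of all genes) and 7 at 24 h (23.3%, beside 14.7%). At 6 h these included Hoxb8, lower in the eluate, and Hoxd12, higher. At 24 h Hoxa9 and Hoxb2 were higher in the eluate, and Hoxb3, Hoxb6, Hoxd3, Hoxd12 and Hoxd13 were lower. At 24 h 24 of the 30 tested genes had a lower mean in the eluate than in WS1442, with a median of -0.25 beside -0.02 over all genes. All 7 tested genes of the D cluster were among them, and the value nearest to 0 was -0.22.

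Whether an effect changed between 6 h and 24 h was tested as an interaction, the difference at 24 h minus that at 6 h. For WS1442, 6 Hox genes were called (20.0% of members, beside 12.7% of all genes): Hoxb3, Hoxc4, Hoxd1, Hoxd12 and Hoxd13 upward and Hoxa9 downward. For the MeOH eluate Hoxb6 was called (3.33% of members, beside 7.73% of all genes). The WS1442 interaction of Hoxd12 was 0.79 (SE 0.15, adjusted p = 0.00464) and held in every alternative run. Hoxc4 gave 0.86 (SE 0.21, adjusted p = 0.0158). It was lost without DMSO 6 h replicate 1 or DMSO 24 h replicate 1 (adjusted p from 0.0703 to 0.0929). Hoxb3 gave 0.62 (SE 0.18, adjusted p = 0.0352), Hoxd13 0.45 (SE 0.13, adjusted p = 0.0317) and Hoxa9 -0.66 (SE 0.20, adjusted p = 0.0452). The WS1442 differences of the other passing probes of Hoxc4 and Hoxb3 did not change sign between the times. The interaction of Hoxb3 was lost in 8 of the 16 fits that each left out 1 array (adjusted p up to 0.126), and in 6 other processing settings (adjusted p up to 0.131). That of Hoxd13 was lost in 5 of the 16 fits that each left out 1 array (adjusted p up to 0.156), and with no filter on background or no intensity trend or only the compared groups in the fit (adjusted p from 0.0535 to 0.0714). That of Hoxa9 was lost in 11 of the 16 fits that each left out 1 array (adjusted p up to 0.146), and in 7 other processing settings (adjusted p up to 0.111).

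Hoxd1, a gene of group 1 and dim on these arrays, read 3.85 and 3.32 in DMSO and 2.95, 2.65 and 2.90 in WS1442 cultures at 6 h, and 3.34 and 3.21 in DMSO and 3.84, 3.95 and 3.83 with WS1442 at 24 h. WS1442 lay below DMSO at 6 h and above it at 24 h without overlap, and none of its 6 h arrays was above background. The interaction was 1.35 (SE 0.42, adjusted p = 0.0483). It shrank to 0.20 with the normexp correction. It was lost in 14 of the 16 fits that each left out 1 array (adjusted p up to 0.208), and in 6 other processing settings (adjusted p up to 0.111). The MeOH eluate interaction of Hoxb6, -2.57 (SE 0.59, adjusted p = 0.0142), compares a fall at 24 h with 6 h values that are all below background. It shrank to -0.84 with the normexp correction. It was lost without DMSO 6 h replicate 2 or DMSO 24 h replicate 1 (adjusted p from 0.0604 to 0.0657), and with only the compared groups in the fit or the replicate number as a block (adjusted p from 0.0538 to 0.0786).

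**Figure D4:**
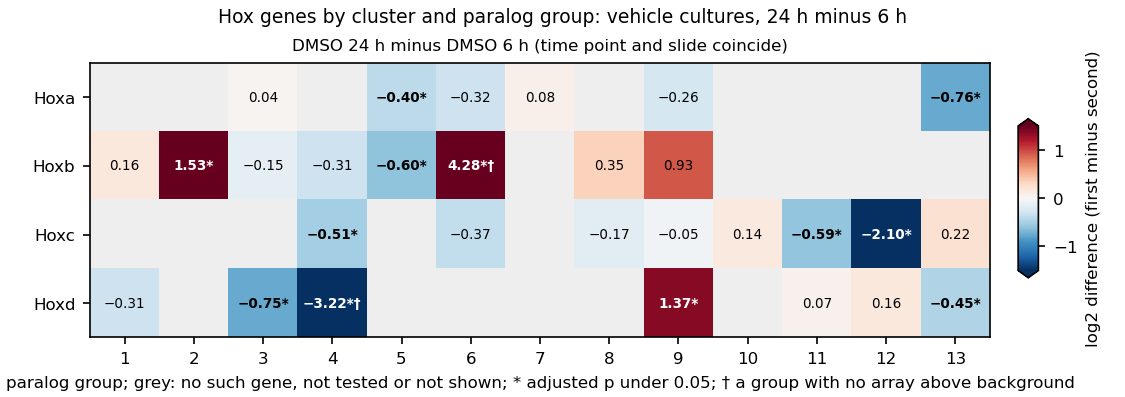
Log2 difference between 24 h and 6 h in DMSO cultures for each tested Hox gene, as colour and printed value, with clusters in rows and paralog groups in columns (asterisk: called; grey: no gene, not tested or not shown; dagger: a group had no array above background, so the size is not measured). Hoxb2 (1.53) and Hoxd9 (1.37) rose and Hoxc12 (-2.10) fell with arrays above background at both times, while Hoxb6 was below background at 6 h and Hoxd4 at 24 h. With the normexp correction the values of Hoxb2, Hoxd9 and Hoxc12 were 1.06, 0.75 and -1.07.

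In the vehicle cultures Hoxb6, Hoxb2 and Hoxd9 rose and Hoxd4 and Hoxc12 fell by over 2-fold between 6 h and 24 h. From 6 h to 24 h Hoxb6 went from 2.13 and 1.46, below background, to 6.21 and 5.95 (adjusted p = 6.96e-06). With the main background correction this was at least 7.05-fold higher. Hoxb2 rose by 1.53 (SE 0.12, adjusted p = 7.26e-07) and Hoxd9 by 1.37 (SE 0.29, adjusted p = 0.00183). In the other direction Hoxd4 went below background, at least 5.12-fold lower with the main correction (adjusted p = 0.000123). Hoxc12 changed by -2.10 (SE 0.29, adjusted p = 5.04e-05). These 5 calls held in all 16 fits leaving out 1 array. Time and slide cannot be told apart here, so the values describe 2 sets of arrays.

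The 7 called changes under 2-fold in DMSO were all downward. Hoxd3 changed by -0.75 (adjusted p = 0.0017), Hoxa13 by -0.76 (adjusted p = 0.0213), Hoxb5 by -0.60 (adjusted p = 0.00501), Hoxc11 by -0.59 (adjusted p = 0.00268), Hoxc4 by -0.51 (adjusted p = 0.0197), Hoxd13 by -0.45 (adjusted p = 0.00217) and Hoxa5 by -0.40 (adjusted p = 0.0111). The call of Hoxa13 was lost without DMSO 6 h replicate 1 or 2 or DMSO 24 h replicate 1 (adjusted p from 0.067 to 0.23), and with only the compared groups in the fit (adjusted p = 0.0607). That of Hoxa5 was lost without DMSO 6 h replicate 2 or DMSO 24 h replicate 1 (adjusted p from 0.0652 to 0.117). That of Hoxb5 was lost without DMSO 6 h replicate 1 or DMSO 24 h replicate 1 (adjusted p from 0.0505 to 0.0606). That of Hoxc4 was lost without DMSO 6 h replicate 1 or DMSO 24 h replicate 1 (adjusted p from 0.112 to 0.194), and with 75th percentile scaling or the array row as a block (adjusted p from 0.0593 to 0.11). For Hoxc6, whose first probe was not called, the probe of the curated transcript gave -1.11 (adjusted p = 0.00296).

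Treatment and time can be set beside each other for the genes called in both. Hoxb2, which rose in DMSO, rose further with both preparations. Hoxb6 and Hoxd9 rose in DMSO and were lower with the MeOH eluate at 24 h. Hoxc12 fell in DMSO and was higher with the MeOH eluate at 24 h. These pairs share the DMSO arrays at 24 h, and a high or low value there enters both differences.

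The 9 tested genes called in no comparison were Hoxa6, Hoxa7, Hoxb1, Hoxb4, Hoxb9, Hoxc8, Hoxc9, Hoxc13 and Hoxd11. A missing call does not show that they stayed the same. By paralog region, the WS1442 medians at 24 h were 0.38 over the 10 tested genes of groups 1 to 4, 0.00 over the 8 of groups 5 to 8 and 0.01 over the 12 of groups 9 to 13. All 10 anterior genes had a difference above 0 there, the lowest at 0.06. The MeOH eluate medians at 24 h were 0.11, -0.17 and -0.21 for the same regions. At 6 h all 3 regions had medians below 0 with both preparations, between -0.25 and -0.11.

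Promoter sequence from RefSeq (GRCm38.p6) was available for 22 Hox genes in 24 entries. The 250 bases before the start are shown for 3 of them: Hoxd3 and Hoxd4, neighbours that fell together between 6 h and 24 h of DMSO, and Hoxb8, which fell with the MeOH eluate at 6 h. Capitals mark letters that match AGGTCA (the half-site of retinoic acid receptors), TTTATG (Cdx proteins) or TATAAA (the TATA box) on either strand.
Hoxd3, chr2:74711743-74711992, plus strand: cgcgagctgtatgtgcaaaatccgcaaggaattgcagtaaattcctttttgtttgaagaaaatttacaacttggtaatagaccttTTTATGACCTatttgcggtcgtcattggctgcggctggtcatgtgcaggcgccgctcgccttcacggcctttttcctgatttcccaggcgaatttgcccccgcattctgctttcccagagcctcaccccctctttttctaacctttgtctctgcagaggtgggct
Hoxd4, chr2:74721728-74721977, plus strand: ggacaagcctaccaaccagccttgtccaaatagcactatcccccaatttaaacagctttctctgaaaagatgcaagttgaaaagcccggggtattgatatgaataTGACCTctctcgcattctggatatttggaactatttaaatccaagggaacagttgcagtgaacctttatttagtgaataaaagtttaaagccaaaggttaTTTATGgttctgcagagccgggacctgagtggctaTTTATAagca
Hoxb8, chr11:96281655-96281904, plus strand: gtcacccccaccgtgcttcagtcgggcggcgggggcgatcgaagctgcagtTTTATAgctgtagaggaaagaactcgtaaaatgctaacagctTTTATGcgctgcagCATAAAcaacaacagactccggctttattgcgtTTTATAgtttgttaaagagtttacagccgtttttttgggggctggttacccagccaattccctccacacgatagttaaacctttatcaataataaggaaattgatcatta

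The Hoxd3 window holds AGGTCA at -161 and TTTATG at -165 from the start, where the matches overlap. Hoxd4 holds AGGTCA at -145, TTTATG at -45 and TATAAA at -10. Hoxb8 holds TTTATG at -157 and -143 and TATAAA at -199 and -110. Over windows of 300 bases (250 before the start and 50 after), AGGTCA stood in 7 of the 24 Hox entries and in 16.3% of all 32851 promoters, TTTATG in 5 and 11.9%, and TATAAA in 4 and 13.6%. TGACAG, known for Meis proteins, stood in 2 and 19.2%, and TGATTNAT, known for Pbx with Hox proteins, in 2 and 3.2%. In the 250 bases before the start alone, the Hox entries were richer in CpG, with a median of 12.5 beside 6.0. Their median GC content there was 58.6% beside 52.4%. The windows of Hoxa9, Hoxa13, Hoxd9 and Hoxd12, which were also called in some comparison, held none of these motifs. A match describes letters and shows neither binding nor its absence.

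**Figure D5:**
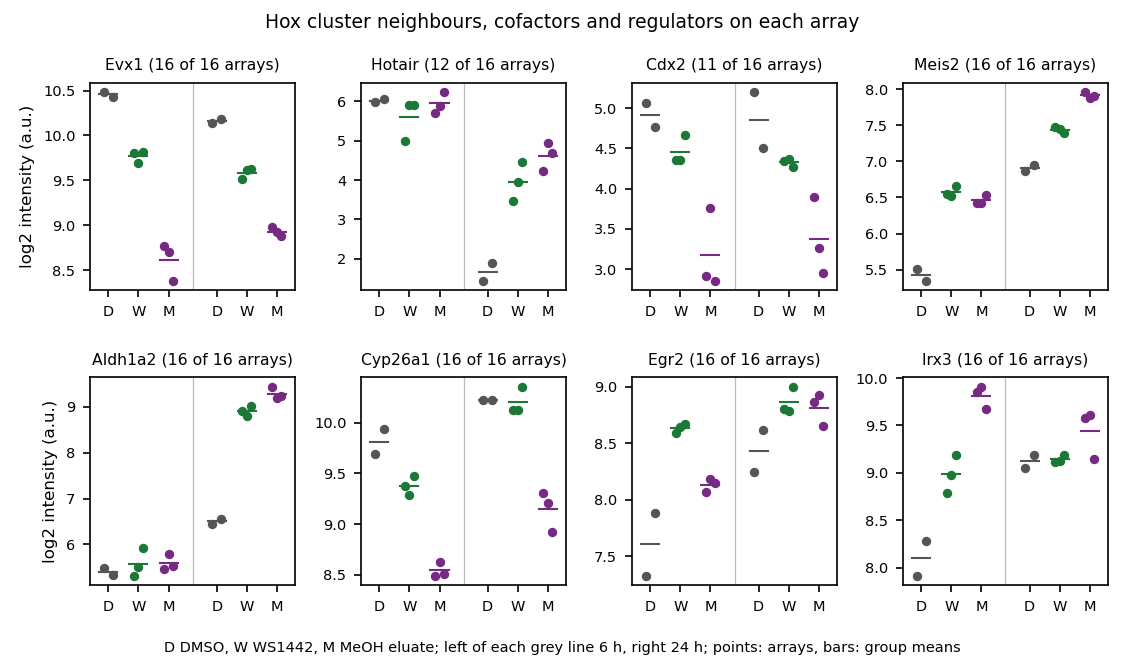
Log2 intensity on each array (points) and group mean (bar) for 8 genes that neighbour the Hox clusters or act on them, in the 6 groups. The MeOH eluate arrays are the lowest for Evx1 and Cdx2 at both times, and Hotair is below background in DMSO at 24 h.

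The counts of other genes below are read against the shares of all genes called higher and lower. Those were 4.13% and 1.42% (WS1442, 6 h), 8.65% and 8.43% (MeOH eluate, 6 h), 12.9% and 11.9% (WS1442, 24 h), 9.63% and 8.62% (MeOH eluate, 24 h) and 20.3% and 23% (DMSO over time).

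Genes in or beside the clusters were examined as a list of 25 names, of which 19 were on the array and 16 tested. Lnp and Lnpk in it name 1 gene, and Mirg, which was called in no treatment comparison, lies at another locus. Called members numbered 0 higher and 1 lower (WS1442, 6 h), 1 and 1 (MeOH eluate, 6 h), 4 and 1 (WS1442, 24 h) and 2 and 1 (MeOH eluate, 24 h). Evx1, a homeobox gene of the primitive streak that lies beyond Hoxa13, read 10.48 and 10.43 in DMSO, 9.80, 9.69 and 9.82 with WS1442, and 8.77, 8.70 and 8.38 with the MeOH eluate at 6 h. At 24 h Evx1 read 10.13 and 10.18 in DMSO, 9.51, 9.61 and 9.62 with WS1442, and 8.98, 8.92 and 8.88 with the MeOH eluate. From high to low the order was DMSO, WS1442, MeOH eluate at both times, without overlap. Evx1 fell with the MeOH eluate, with log2 differences of -1.84 (SE 0.09, adjusted p = 1.48e-08) at 6 h and -1.23 (SE 0.09, adjusted p = 4.68e-07) at 24 h.

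Hotair, the long non-coding RNA between Hoxc12 and Hoxc11, read 5.98 and 6.05 in DMSO, 5.00, 5.91 and 5.91 with WS1442, and 5.71, 5.90 and 6.24 with the MeOH eluate at 6 h. At 24 h Hotair read 1.44 and 1.90 in DMSO, 3.46, 3.94 and 4.47 with WS1442, and 4.22, 4.94 and 4.70 with the MeOH eluate. Both DMSO arrays at 24 h were below background, as were 2 of the 3 WS1442 arrays, and the treated arrays lay above DMSO. With the main background correction it was at least 5.59-fold lower at 24 h than at 6 h in DMSO (adjusted p = 9.23e-07). At 24 h it was, by the same correction, at least 2.13-fold higher with the MeOH eluate than in DMSO (adjusted p = 2.15e-05). With WS1442 it was also called higher (adjusted p = 0.000233), but with 2 of 3 arrays below background the size is uncertain. Hoxc12, its neighbour, had the same signs in DMSO over time and with the MeOH eluate at 24 h.

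Of the caudal and other ParaHox genes (5 tested), Cdx2 was the member called against DMSO. Cdx1 was called between the preparations, where the MeOH eluate minus WS1442 difference was 0.22 (adjusted p = 0.0493) at 6 h and -0.21 (adjusted p = 0.0471) at 24 h. Cdx2, a direct activator of central and posterior Hox genes, read 5.06 and 4.76 in DMSO, 4.36, 4.36 and 4.66 with WS1442, and 2.91, 3.76 and 2.86 with the MeOH eluate at 6 h. At 24 h Cdx2 read 5.20 and 4.50 in DMSO, 4.34, 4.37 and 4.27 with WS1442, and 3.90, 3.26 and 2.96 with the MeOH eluate. The MeOH eluate arrays lay below all others of their time point. The change at 6 h was -1.74 (SE 0.33, adjusted p = 0.00244), with 1 of the 3 MeOH eluate arrays above background. At 24 h no MeOH eluate array was above background. The level there was at least 2-fold lower than in DMSO with the main background correction (adjusted p = 0.00522). Among 16 axial elongation genes, 7 fell and 1 rose with the MeOH eluate at 6 h, beside 1 and 1 with WS1442. At 24 h 3 fell and 1 rose with the MeOH eluate, and 2 fell with WS1442. Those that fell with the MeOH eluate at 6 h included T, the Brachyury factor of the primitive streak, with a log2 difference of -1.28 (adjusted p = 2.12e-06), and Wnt5b, with -1.16 (adjusted p = 1.34e-07). Cyp26a1, which breaks down retinoic acid, also fell at 6 h, with -1.27 (adjusted p = 3.1e-06).

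Of the retinoic acid genes 17 of 22 were tested. Called members numbered 2 higher and 1 lower (WS1442, 6 h), 3 and 3 (MeOH eluate, 6 h), 4 and 3 (WS1442, 24 h) and 4 and 4 (MeOH eluate, 24 h). Aldh1a2, which makes retinoic acid in mesoderm, rose at 24 h by 2.40 (SE 0.15, adjusted p = 6.43e-07) with WS1442 and 2.77 (SE 0.15, adjusted p = 4.47e-08) with the MeOH eluate, where the values were 6.46 and 6.57 in DMSO, 8.91, 8.79 and 9.02 with WS1442, and 9.44, 9.18 and 9.24 with the MeOH eluate. Rdh10, which acts a step earlier, rose with the MeOH eluate at 24 h by 1.24 (adjusted p = 6.23e-07), and Cyp26a1 was lower there, by a log2 difference of -1.08 (adjusted p = 8.28e-06). Of the anterior Hox genes, Hoxb2 rose in both 24 h comparisons and Hoxb3 rose with WS1442, while Hoxb1 and the other tested ones were not called.

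Of 11 TALE cofactors, 3 rose and 1 fell with WS1442 at 6 h, 1 and 3 with the MeOH eluate at 6 h, 4 and 3 with WS1442 at 24 h, and 3 and 3 with the MeOH eluate at 24 h. Meis2, a partner of Hox proteins, rose by 1.15 (adjusted p = 1.29e-05) with WS1442 at 6 h, 1.03 (adjusted p = 3.22e-06) with the MeOH eluate at 6 h and 1.01 (adjusted p = 2.64e-06) with it at 24 h. Of 10 segmental regulators of the hindbrain, 4 rose and 1 fell with WS1442 at 6 h, and 4 and 2 with the MeOH eluate. At 24 h the counts were 2 and 0 with WS1442, and 1 and 1 with the MeOH eluate. Egr2, the activator of Hoxb2 in the hindbrain, rose with WS1442 at 6 h by 1.02 (adjusted p = 0.00141), Irx3 rose with the MeOH eluate at 6 h by 1.71 (adjusted p = 2.45e-06), and Otx2, which marks the brain in front of the Hox territory, fell with it, with a log2 difference of -1.27 (adjusted p = 2.15e-05).

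No Polycomb or Trithorax gene was called with a change of over 2-fold against DMSO. Of 21 Polycomb genes, 1 rose with WS1442 at 6 h, 6 fell with the MeOH eluate at 6 h, 1 rose and 6 fell with WS1442 at 24 h, and 2 rose and 5 fell with the MeOH eluate at 24 h. Of 10 Trithorax genes, none was called at 6 h, 2 rose with WS1442 and 1 with the MeOH eluate at 24 h. In DMSO from 6 h to 24 h, 10 Polycomb genes rose and 3 fell.

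Markers of the cell types that such cultures can hold moved beside the Hox genes. With WS1442 at 6 h, 1 of 8 pluripotency, 2 of 8 primitive streak and mesoderm and 1 of 5 endoderm markers fell, and 1 streak and 1 of 10 cardiac markers rose. With the MeOH eluate at 6 h, 3 pluripotency, 3 streak, 3 endoderm and 1 of 6 neuroectoderm markers fell, and 1 streak, 3 cardiac and 1 neuroectoderm marker rose. With WS1442 at 24 h, 2 pluripotency, 2 streak, 4 cardiac and 2 endoderm markers fell, and 1 streak, 1 cardiac, 3 neuroectoderm and 1 endoderm marker rose. With the MeOH eluate at 24 h, 1 pluripotency, 3 streak, 5 cardiac and 3 endoderm markers fell, and 1 streak and 2 neuroectoderm markers rose. Endothelial, primitive blood and paraxial mesoderm markers had at most 1 call in each direction in each of these comparisons. In DMSO 5 of 6 neuroectoderm markers fell between 6 h and 24 h. The part of a changed share of cells in any Hox result was not tested.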

How the data were processed

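Total RNA of 16 cultures was labelled with Cy3 as cRNA and hybridised to one-colour Agilent arrays. The scanner software gave the authors' deposited background-subtracted intensity per spot. The authors also deposited a table of quantile-normalized intensity on a linear scale, used here after log2 and only as an alternative; each of its 16 columns correlated best with its own array (Spearman, lowest 0.997).

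From the scanner files, control spots and outlier flags were left out, intensities were set to log2 and quantile-normalized, and repeated spots of a probe were averaged. Probe names were matched to RefSeq, by symbol for 8935 probes, by synonym for 420 and by accession for 32916. A probe was tested if all arrays of any 1 group had it well above background (36729 probes), and the brightest tested probe, by its mean over arrays, stood for its gene (29298 genes, 20 missing values). A missing value was left out of that gene's fit.

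Groups were fitted together as 6 means in limma 3.58.1 (R 4.3.3; lmFit, eBayes with an intensity trend), and p-values were adjusted by Benjamini-Hochberg over all genes. A gene is called at an adjusted p under 0.05. A fold against a group with no array above background is a bound. It is set by the higher of each array's lowest signal well above background (log2 3.11 to 4.01 over the arrays) and the probe's own signal. Such a bound holds for the main background correction only, and is given where every array of the other group was above background. The number of arrays limits the precision. The fit was tested on simulated data. Figures were drawn with matplotlib 3.10.9.

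The members, the lists of other genes and the rules for naming were chosen with earlier results of these data known. Array values are given for members called with over 2-fold change and, in each cluster, for the 2 tested members detected on most arrays (ties by mean signal), with further called members added after their values were seen. Other genes are named where a list's member was called with over 2-fold change in a treatment comparison, up to 4 per list and comparison. Results that need an item withheld here are not reported, although counts over all members include every gene. Promoter sequences are those of RefSeq for GRCm38.p6. Replicates of the same number within a time point deviated with correlations from -0.24 to 0.31, so numbers were not taken to pair samples. Alternatives changed the normalization, the background correction, the filter, the probe of a gene, the variance trend, the test, the groups in the fit, the blocks and the arrays left out.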

Additional observations from a re-analysis of the deposited data

Results flagged for a closer look

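For 7 Hox genes the effect of a preparation differed between 24 h and 6 h in the interaction test (limma, adjusted p under 0.05 over all genes). With WS1442 the effect at 24 h minus that at 6 h was 0.86 for Hoxc4, 0.79 for Hoxd12, 0.62 for Hoxb3, 0.45 for Hoxd13 and 1.35 for Hoxd1, and it was -0.66 for Hoxa9 (log2 scale). With the MeOH eluate it was -2.57 for Hoxb6, whose 6 h arrays were all below background. Under the normexp correction the interactions of Hoxd1, Hoxa9 and Hoxb6 shrank by over 1.5 times, to 0.20, -0.38 and -0.84. Those of the others did not shrink by that much. Of the WS1442 effects, 4 had opposite signs at the 2 times. Hoxc4 changed by -0.61 at 6 h and 0.25 at 24 h, Hoxd13 by -0.27 and 0.18, and Hoxb3 by -0.07 and 0.55. Hoxd1, with no WS1442 array above background at 6 h, changed by -0.75 and 0.60. The opposite signs of Hoxc4 and Hoxb3 are those of 1 probe each. At 24 h the probe of the curated Hoxc4 transcript read 9.605 and 9.527 in DMSO, and 9.455, 9.507 and 9.534 with WS1442, without a rise. At 6 h the other passing Hoxb3 probe read 6.415 and 6.462 in DMSO, and 6.893, 6.301 and 6.566 with WS1442, without a lower mean. Time coincides with the slide in these data, although both differences in each interaction are taken within a slide.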

How the results depend on the processing

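The 50 called results of Hox genes were recomputed under the alternatives, which gave 1333 values in all. The call was kept in 1089 of these values and lost in 244, and none changed sign. Of the 533 values from other processing 122 were lost, and of the 800 values from leaving out 1 array 122 were lost. Many of the arrays left out did not belong to the groups compared. Of the 50 results, 19 were called in every fit leaving out 1 array. In every other processing setting run for them 2 were called, and 1 was called throughout. Those settings include the t-test, which called none after adjustment.

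The counts of called Hox genes changed by over 1.5 times as follows. Under the normexp background correction, besides the smaller sizes given above, the MeOH eluate against WS1442 at 6 h gave 1, and the MeOH eluate interaction gave 2. Without the filter on background WS1442 at 6 h gave 1, the MeOH eluate at 6 h 5, the eluate against WS1442 at 6 h 1 and the WS1442 interaction 3. That interaction also gave 3 with the mean of all passing probes. Without the intensity trend WS1442 at 6 h gave 1 and the WS1442 interaction 3. With only the compared groups in the fit WS1442 at 6 h gave 0 (6 at an unadjusted p under 0.05), the eluate against WS1442 at 6 h 1, the WS1442 interaction 2 and the MeOH eluate interaction 0 (7 unadjusted). With the array row as a block the eluate against WS1442 at 6 h gave 1 and the WS1442 interaction 3. The methods' t-test, named there for pairwise comparisons and not for the arrays in particular, gave 0 in each of its 7 comparisons after adjustment, beside 3, 8, 8, 7, 2, 10 and 8 at an unadjusted p under 0.05 (WS1442 and MeOH eluate at 6 h, the same at 24 h, the eluate against WS1442 at 6 h and 24 h, DMSO over time). At the methods' threshold of an unadjusted p under 0.05 with over 2-fold change it gave 0, 1, 1, 3, 1, 1 and 4. It could not be made for the interactions.

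With the replicate number as a replicate block, WS1442 at 6 h gave 0 (5 unadjusted), the MeOH eluate at 6 h 5 and the MeOH eluate interaction 0 (6 unadjusted), and other counts stayed within 1.5 times. The samples share only a number, so this block is not a pairing.

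Leaving out each array in turn, the counts ran from 0 to 3 for WS1442 at 6 h, 2 to 10 for the MeOH eluate at 6 h, 3 to 6 for WS1442 at 24 h, 2 to 6 for the MeOH eluate at 24 h, 1 to 5 and 4 to 8 for the eluate against WS1442 at 6 h and 24 h, 1 to 7 for the WS1442 interaction, 0 to 2 for the MeOH eluate interaction and 8 to 12 for DMSO over time. Without DMSO 6 h replicate 1 the counts were 0 for WS1442 and 2 for the MeOH eluate at 6 h and 1 for the WS1442 interaction. Without DMSO 24 h replicate 1 they were 3 for WS1442 and 2 for the MeOH eluate at 24 h, 1 for the WS1442 interaction and 0 for the MeOH eluate interaction. With 1 DMSO array left, that array is assumed to vary like the other groups. Requiring detection on all 16 arrays leaves 24 Hox genes and drops Hoxb6, Hoxb9, Hoxc9, Hoxd1, Hoxd4 and Hoxd9, and signals near background limit what can be said of these 6.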
